A study of Mus musculus with 15 samples.

Results

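Collagen genes were followed in RNA from mouse cerebellum. The count table held 44 genes, of 24420 in all, whose symbol has the form Col, a number, a and a number and whose counts over the 15 libraries summed to at least 50. No gene with such a symbol fell below that sum, the lowest total being 300 counts for Col10a1. All 44 passed the filter on low counts and were among the 16808 genes tested. By class, 11 encode chains of fibrillar collagens, 6 chains of type IV, the basement membrane collagen, 6 chains of type VI, and 21 encode other collagens.

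The libraries formed 3 groups of 5. The group 82Q_M120A carried both Atxn1[82Q], an Atxn1 allele with an expanded glutamine repeat, and CalphaLoxM120A, an altered allele of the catalytic alpha subunit of protein kinase A that Prkaca encodes. These mice were 8 weeks old and of mixed C57Bl/6J:FVB/nJ strain. The group 82Q carried Atxn1[82Q] alone, and the group WT neither allele, both at 9 weeks of age and in FVB/nJ. The design text calls Atxn1[82Q] a knockin, and the promoter and the cell type that drive either allele are not stated. Between 82Q_M120A and either other group, the kinase allele, the strain and the age change together and cannot be told apart. No group carried the kinase allele without Atxn1[82Q]. The labels name the 5 samples of a group as replicates and say nothing of litters or cage mates, so each p-value reflects only how far these samples spread, which may be technical.

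Collagens are secreted or membrane-bound proteins whose chains wind in triplets into a triple helix. Fibrillar collagens assemble into cross-striated fibrils, fibril-associated collagens sit on the surface of such fibrils, type IV collagen forms the sheet-like network of basement membranes, and type VI forms beaded filaments around cells. In brain, most fibrillar collagen lies in the meninges and around vessels, and type IV collagen in the vascular basement membrane. Some collagens are made by neurons. In mouse cerebellum, collagen XVIII is a product of Purkinje cells, the neurons that send the signals of the cerebellar cortex onward and the main site of disease in spinocerebellar ataxia type 1, which expanded ATXN1 causes.

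Levels are CPM, counts scaled to a common library total on the TMM scale, which corrects library size for the makeup of each library. Differences are log2 fold changes with an approximate standard error from edgeR, fitted by quasi-likelihood to the 15 libraries together. A gene was called when its p-value, adjusted by the Benjamini-Hochberg method over the 16808 tested genes, was under 0.05, and "rose" and "fell" are used of called genes alone. Depth was 38322749 to 99422994 counts per library. Atxn1 was at 53.9 ± 2.14 CPM in 82Q_M120A, 56.5 ± 1.75 in 82Q and 52.9 ± 6.20 in WT (SD, n = 5 each) and was called in no comparison; a count per gene does not show which allele the reads came from. Prkaca was at 145.1 ± 5.54, 164 ± 5.76 and 168 ± 3.60 CPM in 82Q_M120A, 82Q and WT, and was lower in 82Q_M120A than in WT by a log2 fold change of -0.21 (edgeR adjusted p = 5.09e-05) and than in 82Q by -0.18 (edgeR adjusted p = 0.000633).

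The libraries differed in how much RNA of the choroid plexus, the epithelium that secretes cerebrospinal fluid, they held. Ttr, the main choroid plexus transcript, was at 1510 to 2602 CPM in 7 libraries, which were 82Q_M120A-1, 82Q-2, 82Q-5, WT-1, WT-2, WT-3 and WT-5, and at 8.30 to 269 CPM in the other 8 (the number is the place of the library's column within its group). The 12 choroid plexus markers together summed to 27.3 to 2132 CPM in 82Q_M120A, 50.3 to 2872 in 82Q and 43.8 to 2701 in WT, with none of the 12 at 0. Since WT held 4 of the 7 libraries and 82Q_M120A 1, values that rest on this split are given with and without it.

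Of the 44 collagens, 17 were called in at least 1 comparison and 27 in none. Col18a1 and Col5a1 were low in both groups with Atxn1[82Q] and several-fold higher in WT, whereas Col6a3 was low, and Col19a1 high, in 82Q_M120A alone among the groups. In 82Q_M120A against WT, 14 of 44 collagens were called (31.8%), 7 higher and 7 lower, beside 36.4% of all tested genes (18.6% higher and 17.8% lower). In 82Q against WT, 9 were called (20.5%), 4 higher and 5 lower, beside 18.7% of all tested genes (8.63% higher and 10.1% lower). In 82Q_M120A against 82Q, 10 were called (22.7%), 7 higher and 3 lower, beside 18.9% of all tested genes (10.3% higher and 8.63% lower). The share of collagens called was thus near the share of all genes in each comparison. Counts by class or list further on stand beside these same shares of all tested genes. The median log2 fold change over the 44 was -0.09, -0.02 and -0.07 in the order 82Q_M120A against WT, 82Q against WT and 82Q_M120A against 82Q, and over all tested genes 0.0061, 0.013 and -0.0027. The comparisons share libraries, so their calls are not independent of each other.

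Groups without overlap, where every library of one group lay above every library of the other, were found for 10 collagens in 82Q_M120A against WT (25.3% of all tested genes), 6 in 82Q against WT (16.6% of all tested genes) and 7 in 82Q_M120A against 82Q (12.1% of all tested genes). Called and more than 2-fold apart were 7, 3 and 3 collagens in the same order, beside 3.75%, 1.4% and 1.99% of all tested genes. Summed over the 44, collagen counts came to 468 ± 26.3 CPM in 82Q_M120A, 476 ± 45.9 in 82Q and 641 ± 32.8 in WT (SD, n = 5 each). Most of that gap lay in 2 genes: Col18a1 averaged 34.5 CPM in 82Q_M120A, 31.2 in 82Q and 147 in WT, and Col5a1 8.45, 5.91 and 39.5 CPM.

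**Figure D1:**
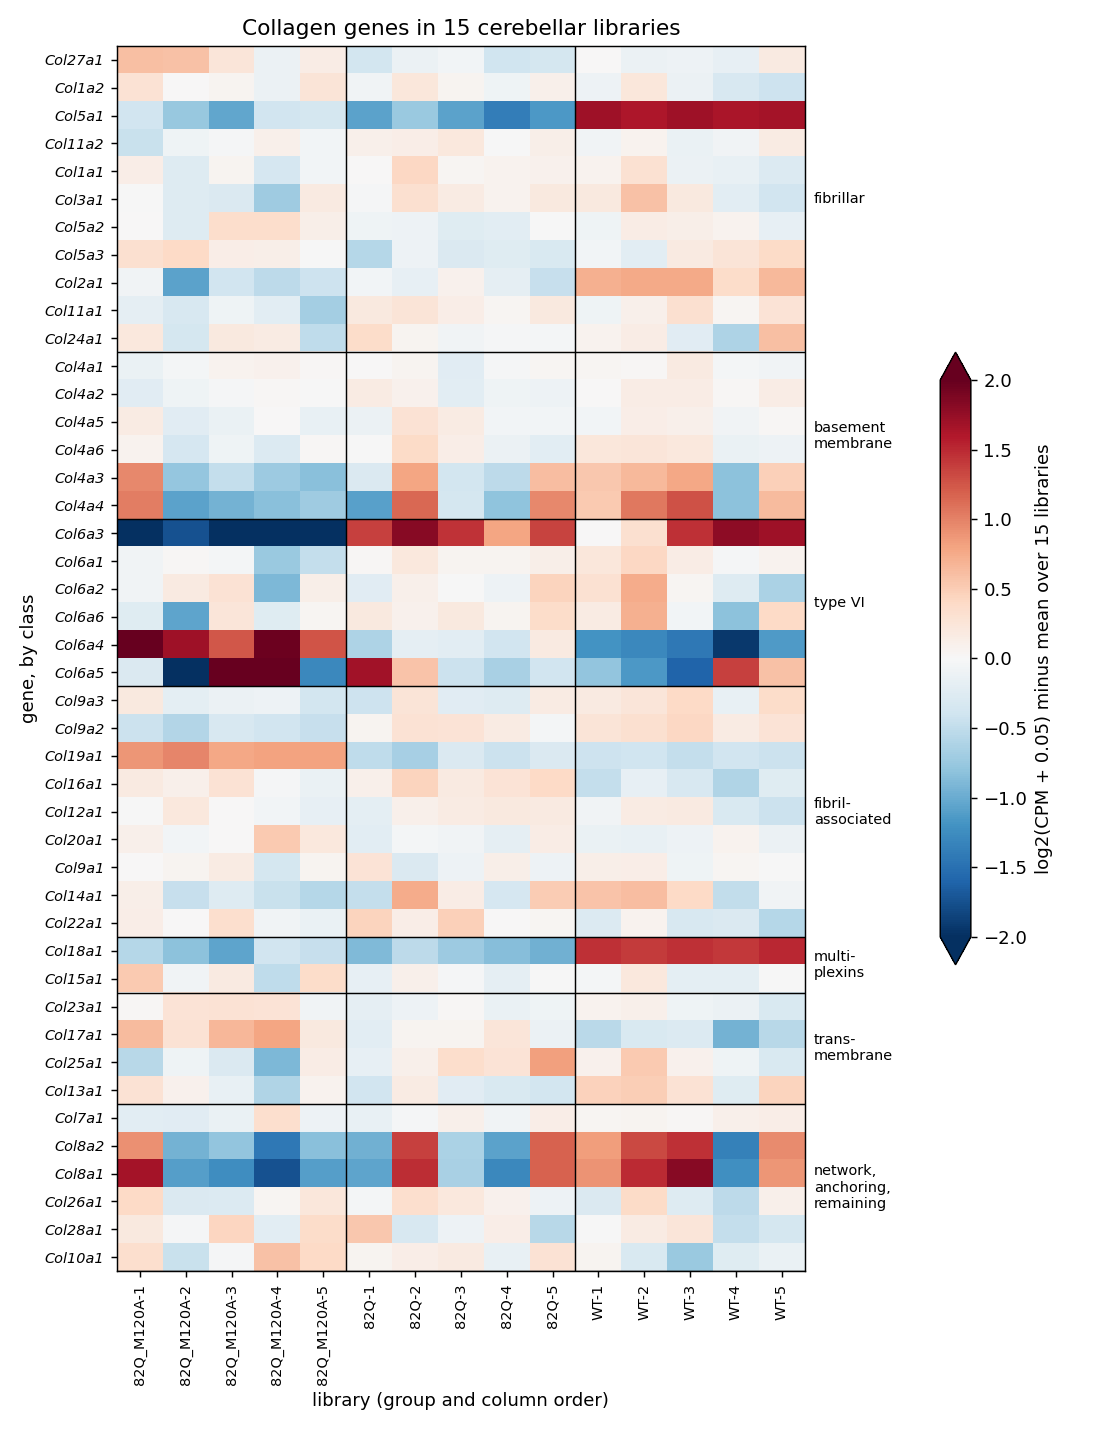
Heat map of the 44 collagens (rows, by class) in the 15 libraries (columns, 82Q_M120A, then 82Q, then WT), coloured by log2(CPM + 0.05) minus the gene's mean over the 15 libraries. Col18a1 and Col5a1 are low in all 10 libraries with Atxn1[82Q], Col6a3 is low and Col19a1 high in the 5 libraries of 82Q_M120A, and the rows of Col8a1, Col8a2, Col4a3 and Col4a4 split each group.

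The promoters of Col5a1, Col18a1 and Col6a3 are shown, since these 3 collagens fell furthest. Each sequence is the 250 bases before a RefSeq transcript start on GRCm38.p6, read 5′ to 3′ along the gene's strand, with GC boxes (GGGCGG on either strand, the motif Sp1 binds) in capitals. Col5a1 starts at chr2:27886425 and its promoter lies at chr2:27886175-27886424 on the plus strand. Col18a1 has a pair of starts in the table, with promoters at chr10:77166531-77166780 and chr10:77113706-77113955 on the minus strand. The Col6a3 promoter lies at chr1:90843972-90844221 on the minus strand.
Col5a1: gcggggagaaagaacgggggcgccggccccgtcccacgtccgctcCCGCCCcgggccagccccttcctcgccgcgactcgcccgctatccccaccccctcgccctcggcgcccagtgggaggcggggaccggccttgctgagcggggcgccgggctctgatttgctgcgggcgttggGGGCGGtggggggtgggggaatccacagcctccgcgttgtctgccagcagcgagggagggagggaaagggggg
Col18a1, upstream start: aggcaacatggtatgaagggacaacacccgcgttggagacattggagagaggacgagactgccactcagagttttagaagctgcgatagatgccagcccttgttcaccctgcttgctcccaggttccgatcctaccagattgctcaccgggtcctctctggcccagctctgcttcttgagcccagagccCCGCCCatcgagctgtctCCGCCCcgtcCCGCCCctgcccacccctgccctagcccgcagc
Col18a1, inner start: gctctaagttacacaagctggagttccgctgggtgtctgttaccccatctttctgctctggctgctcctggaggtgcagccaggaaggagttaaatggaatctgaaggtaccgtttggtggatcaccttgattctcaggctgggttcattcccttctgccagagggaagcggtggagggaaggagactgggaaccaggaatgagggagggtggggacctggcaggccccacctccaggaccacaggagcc
Col6a3: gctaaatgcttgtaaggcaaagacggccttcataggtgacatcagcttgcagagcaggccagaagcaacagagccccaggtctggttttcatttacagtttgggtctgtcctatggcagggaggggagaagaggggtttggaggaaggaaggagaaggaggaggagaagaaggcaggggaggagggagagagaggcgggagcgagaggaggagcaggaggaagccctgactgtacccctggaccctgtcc
The Col5a1 promoter, 76.4% G and C, held 2 GC boxes and the upstream Col18a1 promoter 3, whereas the inner Col18a1 promoter and that of Col6a3 held none. A GC box stood in 22 of the 38 promoters found for 35 of the 44 collagens, and in 32.7% of all 32851 mouse promoters of the table. No collagen promoter held TGACGTCA, the cAMP response element through which protein kinase A acts on transcription, which 1.55% of all promoters hold, nor TGAATGAA, the octamer that the ATXN1 partner Capicua binds, which 1.08% hold. The half-site AGGTCA of nuclear receptors was in 8 of the 38, against 14.0% of all promoters, and TATAAA in 5, against 12.4%. All motifs were searched on both strands. These are matches of letters within 250 bases and say nothing on whether a factor binds there or elsewhere.

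Per kb of exon, a scale that allows levels of different genes to be compared roughly, the order of the collagens differed between groups at its top. The length merges all annotated exons of a gene, whichever transcripts the tissue makes, so the order between genes is approximate. In 82Q_M120A, Col9a3 stood first at 10.95 ± 1.60 CPM per kb, Col9a2 second at 6.53 ± 0.43, Col18a1 next at 4.91 ± 0.89 and then Col19a1 at 4.57 ± 0.27 (SD, n = 5). The means of Col18a1 and Col19a1 lay closer than the SD of Col18a1, though not closer than that of Col19a1. Those of Col9a3 and Col9a2 lay further apart than the SD of either. In 82Q, Col9a3 at 11.2 ± 2.28 and Col9a2 at 9.80 ± 0.95 lay closer than the SD of Col9a3, though not closer than that of Col9a2. Col18a1 followed at 4.45 ± 0.54. In WT, Col18a1 stood first at 20.9 ± 0.58, followed by Col9a3 at 13.7 ± 1.98, Col9a2 at 10.8 ± 0.70 and Col5a1 at 4.66 ± 0.13. Col5a1 was in place 18 of 44 in 82Q_M120A and in place 23 in 82Q. The lowest genes per kb in WT were Col6a4 at 0.012, Col6a5 at 0.029 and Col22a1 at 0.048 CPM per kb.

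**Figure D2:**
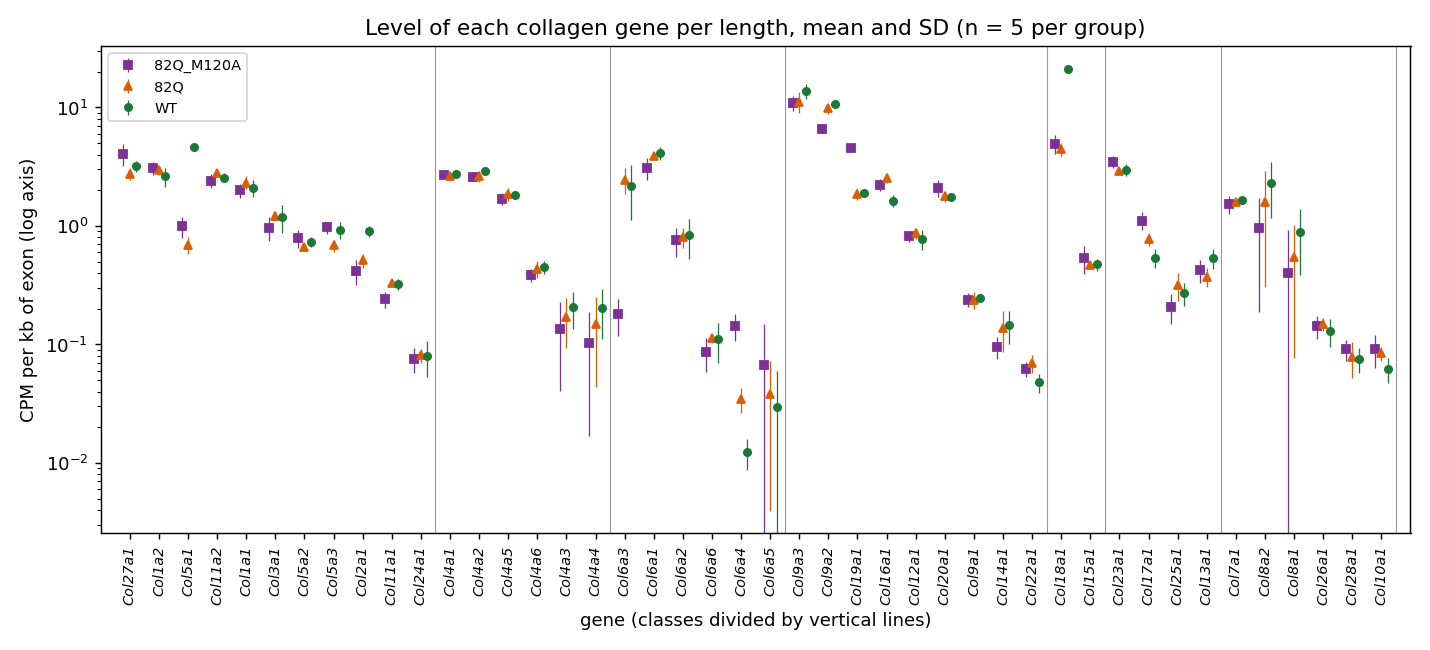
Level of each collagen in CPM per kb of exon (log axis), mean with SD over 5 libraries, by class, with 82Q_M120A left of 82Q and WT at each gene; error bars that run below the axis are cut off. In WT Col18a1 is the highest at 20.9 CPM per kb, and in 82Q_M120A Col6a3 stands at 0.18 CPM per kb against 2.46 in 82Q and 2.19 in WT.

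Among the 11 fibrillar collagens, Col5a1 and Col2a1 fell in both groups with Atxn1[82Q], Col11a1 fell in 82Q_M120A, and Col27a1 rose there. In 82Q_M120A against WT 1 was called higher and 3 lower, in 82Q against WT 0 higher and 3 lower, and in 82Q_M120A against 82Q 3 higher and 1 lower. The summed level of the class was 160.5 ± 13.8 CPM in 82Q_M120A, 145 ± 11.1 in 82Q and 183 ± 10.3 in WT (SD, n = 5 each).

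Col5a1 (chr2:27886425-28039514, plus strand) encodes a chain of type V collagen, which sets the diameter of type I fibrils. It had 9.54, 7.32, 6.05, 9.58 and 9.78 CPM in 82Q_M120A, 5.90, 7.39, 5.89, 4.76 and 5.59 CPM in 82Q, and 40.6, 38.2, 40.6, 38.6 and 39.7 CPM in WT. Every library with Atxn1[82Q] lay far below every WT library, while 82Q_M120A and 82Q overlapped. The log2 fold change was -2.23 ± 0.13 in 82Q_M120A against WT (edgeR adjusted p = 2.22e-09) and -2.74 ± 0.13 in 82Q against WT (edgeR adjusted p = 3.45e-10), falls of 4.68-fold and 6.69-fold. In 82Q_M120A it stood 1.43-fold above 82Q (0.52 ± 0.13, edgeR adjusted p = 0.0104). That difference was 0.57 with edgeR adjusted p = 0.0865 in the libraries with little choroid plexus RNA alone, where 4 and 3 libraries were left.

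The other chains of type V took other courses. Col5a2 was at 5.80 to 8.90 CPM in 82Q_M120A, 5.85 to 6.95 in 82Q and 6.18 to 7.74 in WT and was called nowhere, although without 82Q_M120A-2 it stood higher in 82Q_M120A than in 82Q (0.34, edgeR adjusted p = 0.0122). Col5a3 had 7.20, 7.63, 6.29, 6.27 and 5.74 CPM in 82Q_M120A, 3.84, 5.33, 4.69, 4.84 and 4.64 in 82Q, and 5.55, 4.98, 6.54, 6.87 and 7.54 in WT. All 5 libraries of 82Q_M120A lay above all of 82Q, and 82Q overlapped WT at its lower end. Col5a3 was lower in 82Q than in WT (-0.43 ± 0.11, edgeR adjusted p = 0.0124) and higher in 82Q_M120A than in 82Q (0.50 ± 0.11, edgeR adjusted p = 0.00408), while 82Q_M120A against WT gave 0.08 ± 0.11 (edgeR adjusted p = 0.619). In the 7 libraries with much choroid plexus RNA the first of these was -0.29 (edgeR adjusted p = 0.264) and the second 0.53 (edgeR adjusted p = 0.145, with 1 library of 82Q_M120A). In the 8 libraries with little, the first was -0.63 (edgeR adjusted p = 0.0845, with 1 library of WT) and the second 0.54 (edgeR adjusted p = 0.0207), which was called.

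Col2a1 (chr15:97975602-98004695, minus strand), the chain of cartilage collagen II, had 5.03, 2.48, 4.05, 3.66 and 3.94 CPM in 82Q_M120A, 5.06, 4.69, 5.57, 4.66 and 3.82 in 82Q, and 8.70, 8.92, 8.98, 6.80 and 8.26 in WT. All 10 libraries with Atxn1[82Q] lay below all WT libraries. The falls were -1.12 ± 0.14 in 82Q_M120A (edgeR adjusted p = 1.24e-05) and -0.81 ± 0.14 in 82Q (edgeR adjusted p = 0.000617). The lowest WT value was that of WT-4, the WT library with little choroid plexus RNA, and among the libraries with little such RNA 82Q against WT gave -0.42 (edgeR adjusted p = 0.434). Between 82Q_M120A and 82Q the difference was -0.31 (edgeR adjusted p = 0.152), and -0.43 (edgeR adjusted p = 0.0374) without 82Q_M120A-1.

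Col11a1, which builds mixed fibrils with collagen II, had 3.30003, 2.98, 3.50, 3.21 and 2.30 CPM in 82Q_M120A, 4.26, 4.48, 4.09, 3.85 and 4.28 in 82Q, and 3.53, 4.03, 4.65, 3.85 and 4.52 in WT. The highest library of 82Q_M120A was just below the lowest of WT. It fell by 0.42 ± 0.10 on the log2 scale against WT (edgeR adjusted p = 0.00414) and by 0.45 ± 0.10 against 82Q (edgeR adjusted p = 0.00509). Within either set of libraries by choroid plexus RNA alone, both contrasts kept their direction, at -0.33 to -0.44 with edgeR adjusted p of 0.0785 to 0.293. Col11a2, its partner chain, was at 12.9 to 18.9 CPM in 82Q_M120A, 17.7 to 20.5 in 82Q and 16.1 to 19.8 in WT and was called nowhere, although without 82Q_M120A-4 it stood lower in 82Q_M120A than in 82Q (-0.26, edgeR adjusted p = 0.0365). With all libraries, Col11a2 in 82Q_M120A was at -0.08 against WT and -0.21 against 82Q. In the libraries with much choroid plexus RNA these values were -0.46 and -0.58. There they rest on 82Q_M120A-1 alone in its group, which at 12.9 CPM was the lowest of the group. In the libraries with little such RNA they were 0.06, with WT-4 alone in its group, and -0.12.

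Col27a1, a long fibrillar chain best known from cartilage, had 64.2, 63.7, 50.4, 39.0 and 47.1 CPM in 82Q_M120A, 33.0, 39.3, 41.1, 32.3 and 33.3 in 82Q, and 42.8, 39.3, 39.6, 37.7 and 48.3 in WT. The libraries of 82Q_M120A spread over a wide range, with 82Q_M120A-4 inside the range of both other groups. It rose against 82Q (0.56 ± 0.13, edgeR adjusted p = 0.00685; 0.50 and 0.126 in the libraries with little choroid plexus RNA). The rise against WT, 0.35 ± 0.13 (edgeR adjusted p = 0.0444), was held in 3 of the 10 fits that each left out 1 library. It was lost without 82Q_M120A-1, 82Q_M120A-2 or 82Q_M120A-3 or WT-1, WT-2, WT-3 or WT-4, at 0.27 to 0.37 with edgeR adjusted p up to 0.117. It was 0.41 (edgeR adjusted p = 0.374) in the libraries with little choroid plexus RNA.

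The collagen I and III genes, whose products make up most fibrillar collagen of connective tissue, were called in no comparison by the fit of all libraries, though some alternatives called Col1a2 and Col3a1. Col1a2, the most abundant of them, had 43.3, 35.5, 37.0, 32.9 and 42.4 CPM in 82Q_M120A, 33.9, 41.4, 36.9, 33.5 and 37.9 in 82Q, and 33.0, 41.7, 32.7, 28.6 and 26.5 in WT. The groups overlapped, and the log2 fold change of 82Q_M120A against WT was 0.23 ± 0.11 (edgeR adjusted p = 0.113). That contrast was 0.38 (edgeR adjusted p = 0.0117) with the choroid plexus score as a covariate, 0.29 (edgeR adjusted p = 1.53e-05) with the meninges score as a covariate, and 0.34 (edgeR adjusted p = 0.0109) without WT-2. With the meninges score, 82Q against WT was 0.16 (edgeR adjusted p = 0.00699) and 82Q_M120A against 82Q 0.13 (edgeR adjusted p = 0.0242). Col1a1 was at 11.01 to 15.2 CPM in 82Q_M120A, 14.0 to 18.7 in 82Q and 11.5 to 17.2 in WT. Col3a1 was at 6.60 to 12.3, 10.6 to 13.5 and 8.26 to 16.2 CPM in the same order. With the meninges score as a covariate Col3a1 was called lower in 82Q_M120A than in WT (-0.22, edgeR adjusted p = 0.0335) and than in 82Q (-0.24, edgeR adjusted p = 0.0380), the opposite direction to Col1a2. Col24a1 was scarce at 0.396 to 0.688, 0.554 to 0.771 and 0.362 to 0.909 CPM. The 18 meninges and fibroblast markers, the markers of cells that make these collagens, summed to 325 to 549 CPM in 82Q_M120A, 355 to 694 in 82Q and 310.4 to 668 in WT, with 1 called higher (Cemip) and 1 lower (Islr) in 82Q_M120A against WT and only Cemip called, higher, in each of the other comparisons.

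Of the multiplexins, basement membrane collagens that carry heparan or chondroitin sulfate chains, Col18a1 fell in both groups with Atxn1[82Q] and Col15a1 was called nowhere. Col18a1 (chr10:77052178-77166548, minus strand), whose C-terminal fragment endostatin acts on vessels and, in mouse cerebellum, on climbing fibre terminals, had 36.2, 30.5, 25.8, 41.1 and 38.8 CPM in 82Q_M120A. It had 29.0, 37.3, 32.5, 29.8 and 27.6 CPM in 82Q, and 148, 142, 148, 144 and 153 CPM in WT. No library with Atxn1[82Q] came near the WT range, and 82Q_M120A and 82Q lay over each other. The log2 fold change was -2.09 ± 0.11 in 82Q_M120A against WT (edgeR adjusted p = 2.54e-09), -2.23 ± 0.11 in 82Q against WT (edgeR adjusted p = 1.60e-09) and 0.14 ± 0.11 between 82Q_M120A and 82Q (edgeR adjusted p = 0.424). Col15a1 is found in vessel and muscle basement membranes. It was at 2.15 to 4.49 CPM in 82Q_M120A, 2.72 to 3.32 in 82Q and 2.69 to 3.57 in WT. In 82Q_M120A against WT its log2 fold change was 0.19 (edgeR adjusted p = 0.342) with all libraries. Without 82Q_M120A-4 it was called higher (0.32, edgeR adjusted p = 0.0474). In the libraries with much choroid plexus RNA it was 0.54, a value that rests on 82Q_M120A-1 alone in its group.

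Purkinje cell markers were lower in the same libraries. All 13 fell in 82Q_M120A against WT and in 82Q against WT, and they summed to 3695 to 5107 CPM in 82Q_M120A, 3648 to 4550 in 82Q and 10259.9 to 11663 in WT. Their log2 fold changes ran from -2.30 (Gng13) to -0.30 (Skor2) in 82Q_M120A against WT and from -2.29 (Gng13) to -0.60 (Skor2) in 82Q against WT, with medians of -1.06 and -1.15. The falls of Col18a1 lay within these ranges, as did those of Col2a1, and that of Col5a1 in 82Q lay beyond. In bulk tissue, fewer cells of a type and less RNA per cell cannot be told apart. Between 82Q_M120A and 82Q, 3 of the 13 markers were called, all higher. Of 10 microglia markers 8 rose and 1 fell in 82Q_M120A against WT and 10 rose in 82Q against WT; of 10 granule cell markers 6 rose and 1 fell, and 1 rose; of 10 astrocyte and Bergmann glia markers 2 rose and 3 fell, and 3 rose and 3 fell. In 82Q_M120A against 82Q, 2 rose and 2 fell of the microglia markers, 2 rose of the granule cell markers and 2 fell of the astrocyte and Bergmann glia markers. The part of these markers in the collagen values was not tested.

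**Figure D3:**
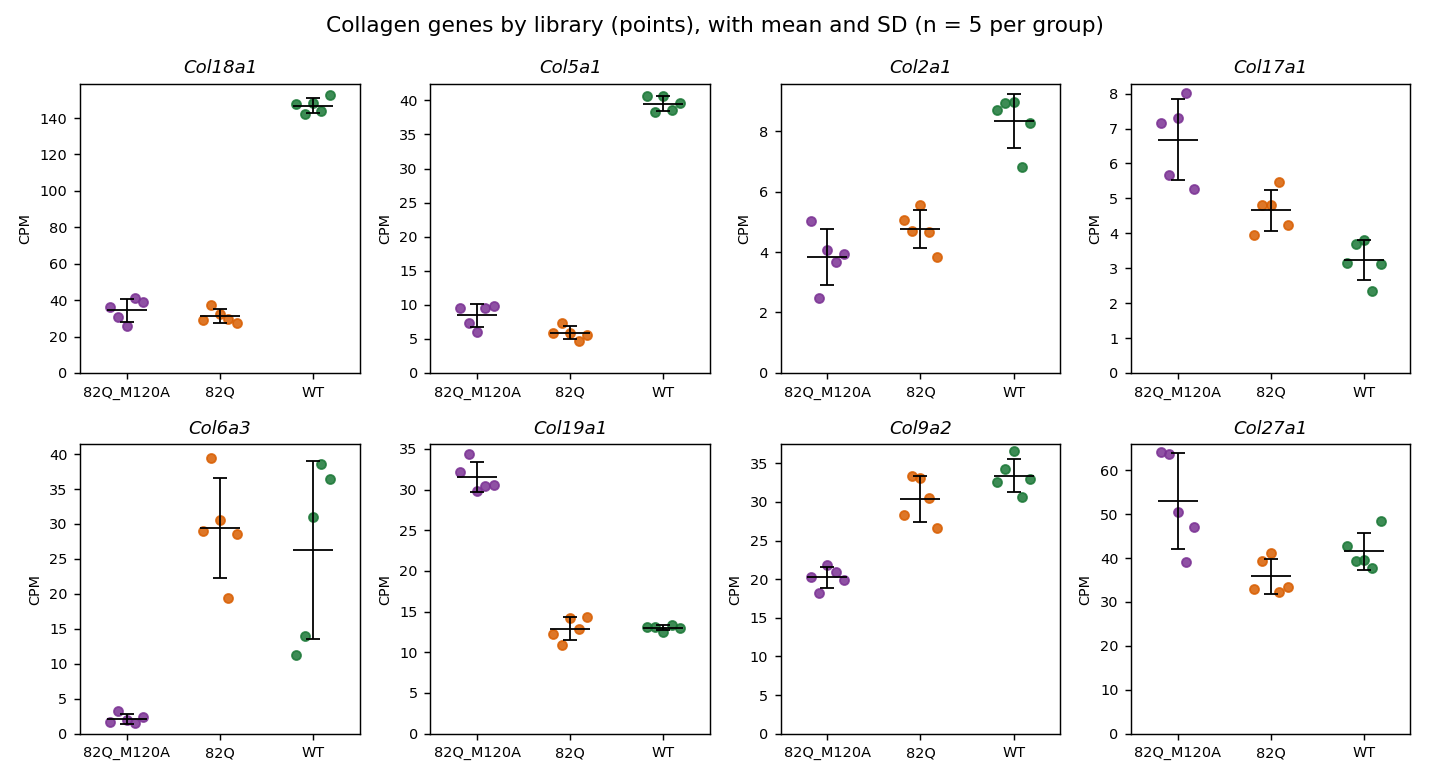
CPM of named collagens in every library (points), with mean and SD (horizontal and vertical bars, n = 5), 82Q_M120A left of 82Q and WT. Col18a1, Col5a1 and Col2a1 are low in both groups with Atxn1[82Q], Col17a1 is at 6.68, 4.66 and 3.23 CPM on average, and Col6a3, Col19a1 and Col9a2 stand apart in 82Q_M120A.

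In 82Q_M120A, type VI collagen gave the largest difference of any collagen in either direction, Col6a3 lower and Col6a4 higher, against both WT and 82Q. In 82Q_M120A against WT 1 of the 6 chains was called higher and 2 lower, in 82Q against WT 1 higher and 0 lower, and in 82Q_M120A against 82Q 1 higher and 1 lower. The classical molecule joins the products of Col6a1, Col6a2 and Col6a3. Col6a3 (chr1:90765923-90843971, minus strand) had 1.60, 3.29, 2.01, 1.49 and 2.34 CPM in 82Q_M120A, 29.0, 39.5, 30.6, 19.4 and 28.6 in 82Q, and 11.3, 14.0, 31.0, 38.6 and 36.5 in WT. The WT libraries fell apart into a low pair, WT-1 and WT-2, and a high set of 3, and even the low pair stood above every library of 82Q_M120A. The log2 fold change was -3.61 ± 0.40 against WT (edgeR adjusted p = 1.26e-05) and -3.78 ± 0.40 against 82Q (edgeR adjusted p = 2.80e-05), while 82Q against WT gave 0.17 ± 0.34 (edgeR adjusted p = 0.787). Among libraries with much choroid plexus RNA, with 1 library of 82Q_M120A, the values were -3.84 (edgeR adjusted p = 0.0812) and -4.41 (edgeR adjusted p = 0.111).

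The partner chains showed smaller differences. Col6a1 had 15.2, 16.2, 15.4, 9.52 and 11.4 CPM in 82Q_M120A, 16.3, 18.5, 16.6, 16.5 and 17.3 in 82Q, and 18.7, 21.3, 17.6, 15.6 and 16.7 in WT. The pair 82Q_M120A-4 and 82Q_M120A-5 was low and the rest of that group near the others. It fell against WT (-0.41 ± 0.13, edgeR adjusted p = 0.0183), but not without WT-2 (-0.34, edgeR adjusted p = 0.0519) or with the choroid plexus score as a covariate (-0.30, edgeR adjusted p = 0.116). In the libraries with little choroid plexus RNA it was -0.25 (edgeR adjusted p = 0.605) and in those with much -0.29 (edgeR adjusted p = 0.111). Against 82Q it was not called (-0.33, edgeR adjusted p = 0.0814), but was without 82Q_M120A-2 (-0.40, edgeR adjusted p = 0.0433). All its values in 82Q_M120A, at most 16.218 CPM, lay below all those in 82Q, at least 16.2535 CPM. DESeq2 called 3 of the 6 type VI chains in that contrast, against 2 by edgeR. Col6a2, whose gene lies beside Col6a1 on chr10, was at 3.40 to 7.78 CPM in 82Q_M120A, 5.44 to 8.76 in 82Q and 4.09 to 10.7 in WT and was called nowhere.

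Col6a4, Col6a5 and Col6a6, which encode chains able to take the place of the Col6a3 product in mouse, lie together on chr9 and were scarce. Col6a4 (chr9:105989454-106096783, minus strand) had 1.57, 1.25, 0.899, 1.502 and 0.906 CPM in 82Q_M120A, 0.210, 0.304, 0.298, 0.258 and 0.403 in 82Q, and 0.125, 0.114, 0.0989, 0.0558 and 0.134 in WT. The 3 groups did not overlap. Behind these levels stood 536 counts in 82Q_M120A, 121 in 82Q and 35 in WT over 5 libraries each, which gave ratios to WT of 11.8 (95% exact interval for counting error alone, 8.37 to 17.1) and 2.86 (1.95 to 4.29). The log2 fold change was 3.55 ± 0.25 in 82Q_M120A against WT (edgeR adjusted p = 5.30e-09), 1.498 ± 0.28 in 82Q against WT (edgeR adjusted p = 0.000952) and 2.05 ± 0.21 in 82Q_M120A against 82Q (edgeR adjusted p = 1.99e-06). With the libraries of little choroid plexus RNA alone, 82Q against WT was 2.18 (edgeR adjusted p = 0.0916). Of its neighbours, Col6a5 spread from 0.0136 to 1.64 CPM within 82Q_M120A, 0.141 to 0.911 in 82Q and 0.0495 to 0.725 in WT, and Col6a6 was at 0.408 to 1.07, 0.940 to 1.18 and 0.488 to 1.51 CPM, with neither called. In 82Q_M120A, Col6a4 averaged 0.14 CPM per kb, and Col6a3 was at 0.18 CPM per kb there.

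Of the 9 fibril-associated collagens, 3 were called higher and 1 lower in 82Q_M120A against WT, 2 higher and 0 lower in 82Q against WT, and 1 higher and 1 lower in 82Q_M120A against 82Q. Col19a1 (chr1:24261890-24587472, minus strand), known in mouse forebrain as a collagen of interneurons, had 32.2, 34.4, 29.8, 30.5 and 30.6 CPM in 82Q_M120A, 12.2, 10.9, 14.2, 12.9 and 14.3 in 82Q, and 13.1, 13.2, 12.6, 13.4 and 12.9 in WT. The 5 libraries of 82Q_M120A lay close together and far above all the others, and the WT range lay within that of 82Q. It rose 2.42-fold against WT (1.27 ± 0.06, edgeR adjusted p = 6.56e-11) and 2.44-fold against 82Q (1.29 ± 0.06, edgeR adjusted p = 2.13e-10), and 82Q against WT gave -0.01 ± 0.06 (edgeR adjusted p = 0.920). Col9a1 lies next along chr1, at 24177610 to 24252684 on the plus strand, and was at 0.937 to 1.37 CPM in 82Q_M120A, 0.982 to 1.49 in 82Q and 1.138 to 1.34 in WT, called nowhere.

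Type IX collagen, a coat of cartilage fibrils, is built from the products of Col9a1, Col9a2 and Col9a3. Col9a2 had 20.3, 18.2, 21.8, 20.9 and 19.9 CPM in 82Q_M120A, 28.3, 33.3, 33.1, 30.5 and 26.6 in 82Q, and 32.5, 34.2, 36.5, 30.7 and 33.0 in WT. All libraries of 82Q_M120A lay below all others. It fell by 0.72 ± 0.07 on the log2 scale against WT (edgeR adjusted p = 1.10e-07) and by 0.59 ± 0.06 against 82Q (edgeR adjusted p = 5.22e-06). Col9a3 had 52.0, 39.6, 42.0, 42.3 and 35.1 CPM in 82Q_M120A, 34.2, 54.0, 38.7, 37.9 and 51.1 in 82Q, and 51.6, 54.0, 59.7, 40.8 and 58.8 in WT. Each group held high and low libraries and none stood apart, and the log2 fold change against WT was -0.33 in 82Q_M120A (edgeR adjusted p = 0.0941) and -0.29 in 82Q (edgeR adjusted p = 0.189). It is 1 of the genes that split by choroid plexus RNA, described further on, and it shares 234 exon bases (6.07% of its exons) with Tcfl5, which the counting may split between both genes, as no source used here gives the strand setting.

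Col16a1, a collagen of fibril margins and cell adhesion sites, had 15.96, 15.2, 17.2, 13.9 and 12.9 CPM in 82Q_M120A, 15.2, 19.2, 16.01, 17.0 and 18.6 in 82Q, and 10.1, 12.6, 11.3, 9.34 and 11.9 in WT. Both groups with Atxn1[82Q] lay above WT, narrowly in the case of 82Q_M120A-5 at 12.9 against WT-2 at 12.6. The rises were 0.45 ± 0.09 in 82Q_M120A (edgeR adjusted p = 0.00101) and 0.64 ± 0.09 in 82Q (edgeR adjusted p = 6.02e-05). Col20a1 had 10.3, 9.21, 9.62, 13.8 and 11.1 CPM in 82Q_M120A, 8.32, 9.34, 9.14, 8.43 and 10.6 in 82Q, and 8.70, 8.65, 8.97, 10.04 and 8.88 in WT. The groups overlapped, and its rise in 82Q_M120A against WT (0.26 ± 0.10, edgeR adjusted p = 0.0430) was held in 4 of the 10 fits without 1 library. It was lost without 82Q_M120A-4 or 82Q_M120A-5 or WT-1, WT-2, WT-3 or WT-5, at 0.16 to 0.25 with edgeR adjusted p up to 0.133. Against 82Q it was not called (0.24, edgeR adjusted p = 0.0897), though it was at 0.29 without 82Q-5 (edgeR adjusted p = 0.0478) or 82Q_M120A-2 (edgeR adjusted p = 0.0438). In the libraries with little choroid plexus RNA the contrast with WT was 0.12 (edgeR adjusted p = 0.744), and in those with much 0.23 (edgeR adjusted p = 0.0908). It was 0.27 (edgeR adjusted p = 0.0803) with the choroid plexus score and 0.25 (edgeR adjusted p = 0.0556) with the meninges score as a covariate.

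Col22a1, a collagen of tissue junctions, was scarce at 0.489 to 0.695 CPM in 82Q_M120A, 0.540 to 0.770 in 82Q and 0.348 to 0.569 in WT. It rose in 82Q against WT (0.53 ± 0.16, edgeR adjusted p = 0.0318), a call that held in 4 of 10 fits without 1 library and was lost without 82Q-1 or 82Q-3 or WT-1, WT-3, WT-4 or WT-5, at 0.45 to 0.52 with edgeR adjusted p up to 0.0880. In the libraries with little choroid plexus RNA it was 0.67 (edgeR adjusted p = 0.403) and in those with much 0.35 (edgeR adjusted p = 0.397). Col12a1, which links fibrils to surrounding matrix, was at 11.04 to 14.3, 10.8 to 14.2 and 9.17 to 14.1 CPM in 82Q_M120A, 82Q and WT. Col14a1, its close relative, was at 0.552 to 0.913, 0.588 to 1.44 and 0.585 to 1.32 CPM. Neither was called, but Col14a1 was lower in 82Q_M120A than in WT without WT-4 (-0.77, edgeR adjusted p = 0.0244) and with the meninges score as a covariate (-0.47, edgeR adjusted p = 0.0455). WT-4 was the only WT library with little choroid plexus RNA. With the choroid plexus score as a covariate the contrast was -0.07 (edgeR adjusted p = 0.804). It was 0.07 in the libraries with little such RNA and -0.34 in those with much, each with a lone library in 1 group.

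The 4 transmembrane collagens stay anchored in the cell that makes them until their outer part is shed, and 3 of them were called. In 82Q_M120A against WT 2 were higher and 0 lower, in 82Q against WT 1 higher and 1 lower, and in 82Q_M120A against 82Q 2 higher and 0 lower. Col17a1, the hemidesmosome collagen of skin, had 7.16, 5.66, 7.31, 8.01 and 5.28 CPM in 82Q_M120A, 3.97, 4.81, 4.80, 5.47 and 4.24 in 82Q, and 3.15, 3.70, 3.81, 2.36 and 3.13 in WT. The lowest library of 82Q lay just above the highest of WT, and 82Q_M120A-5 was the only library of its group within the range of 82Q. Col17a1 rose by a log2 fold change of 1.05 ± 0.14 in 82Q_M120A against WT (edgeR adjusted p = 1.18e-05), 0.53 ± 0.14 in 82Q against WT (edgeR adjusted p = 0.0115) and 0.52 ± 0.13 in 82Q_M120A against 82Q (edgeR adjusted p = 0.0114). In the libraries with little choroid plexus RNA the last 2 were 1.01 (edgeR adjusted p = 0.0857, with 1 WT library) and 0.47 (edgeR adjusted p = 0.115).

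Col23a1 had 18.2, 21.6, 21.8, 21.5 and 17.0 CPM in 82Q_M120A, 15.7, 16.6, 18.1, 16.2 and 16.8 in 82Q, and 18.7, 19.2, 16.7, 16.4 and 14.4 in WT. The groups overlapped, with 82Q_M120A-2, 82Q_M120A-3 and 82Q_M120A-4 above the rest. Its rises were small, 0.23 ± 0.08 in 82Q_M120A against WT (edgeR adjusted p = 0.0352) and 0.26 ± 0.08 against 82Q (edgeR adjusted p = 0.0302), and each call was lost without any 1 of those 3 libraries (0.20 with edgeR adjusted p up to 0.0874, and 0.23 with up to 0.0768). The call against WT was also lost without WT-3, WT-4 or WT-5 (0.17 to 0.22, up to 0.0982) and that against 82Q without 82Q-1, 82Q-2, 82Q-4 or 82Q-5 (0.24 to 0.26, up to 0.0698). Where much choroid plexus RNA was held the values were 0.07 (edgeR adjusted p = 0.741) and 0.13 (edgeR adjusted p = 0.672), where little was held 0.32 (edgeR adjusted p = 0.178) and 0.30 (edgeR adjusted p = 0.0766), and with the choroid plexus score as a covariate 0.22 (edgeR adjusted p = 0.101) and 0.26 (edgeR adjusted p = 0.0535).

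Col13a1, known from the neuromuscular junction, had 2.46, 2.11, 1.79, 1.30 and 2.08 CPM in 82Q_M120A, 1.51, 2.25, 1.69, 1.60 and 1.53 in 82Q, and 2.76, 2.82, 2.45, 1.67 and 2.73 in WT. In 82Q the library 82Q-2 was high, and in WT the library WT-4 was low. The fall in 82Q against WT (-0.53 ± 0.17, edgeR adjusted p = 0.0381) held in 2 of 10 fits without 1 library, those without 82Q-2 or WT-4, and reached an adjusted p of 0.0932 in the others, where it was -0.48 to -0.54. In the libraries with little choroid plexus RNA it was -0.06 (edgeR adjusted p = 0.946) and in those with much -0.50 (edgeR adjusted p = 0.0563). In 82Q_M120A against WT it was called only without WT-4 (-0.46, edgeR adjusted p = 0.0308), the only WT library with little choroid plexus RNA. With all libraries that contrast was -0.35 (edgeR adjusted p = 0.121), and -0.07 (edgeR adjusted p = 0.778) with the choroid plexus score as a covariate. In the libraries with little such RNA it was 0.12, and in those with much -0.13, each with a lone library in 1 group. Col25a1, a neuronal collagen first found in amyloid plaques, was at 1.74 to 3.68, 2.93 to 5.87 and 2.65 to 4.78 CPM in 82Q_M120A, 82Q and WT. It missed the threshold in 82Q_M120A against 82Q (-0.61 ± 0.21, edgeR adjusted p = 0.0545). It passed without 82Q-1 (-0.71, edgeR adjusted p = 0.0336) or 82Q_M120A-5 (-0.75, edgeR adjusted p = 0.0237), or with the meninges score as a covariate (-0.52, edgeR adjusted p = 0.0428). DESeq2 and limma-voom each called 3 of the 4 transmembrane collagens in that contrast, Col25a1 among them.

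**Figure D4:**
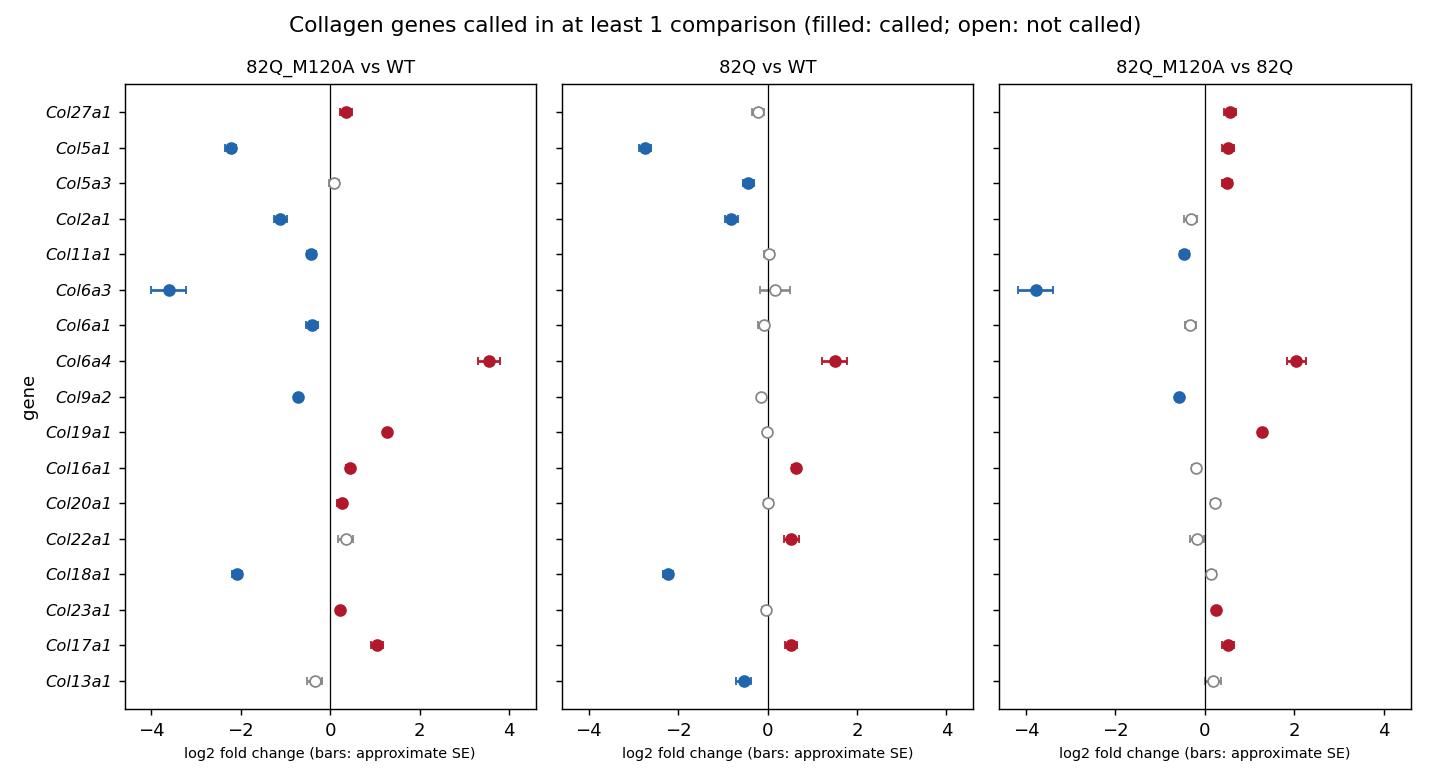
Log2 fold changes with approximate standard errors of the 17 collagens called in at least 1 comparison, in 82Q_M120A against WT, 82Q against WT and 82Q_M120A against 82Q (panels); filled points passed the threshold and open points did not. Col6a3 and Col6a4 reach -3.61 and 3.55 in 82Q_M120A against WT, and Col19a1 is near 0 in 82Q against WT.

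None of the 6 basement membrane collagens was called by edgeR, DESeq2 or limma-voom in any comparison, and at an unadjusted p under 0.05 edgeR gave 1, Col4a2 in 82Q_M120A against WT, 0 in 82Q against WT and 0 in 82Q_M120A against 82Q. Their summed level was 54.1 ± 2.22 CPM in 82Q_M120A, 56.3 ± 4.91 in 82Q and 59.5 ± 4.38 in WT (SD, n = 5 each). The 6 genes lie as 3 pairs that start next to each other on opposite strands: Col4a1 with Col4a2 on chr8, where the starts are 21 bases apart and 22 exon bases overlap, Col4a3 with Col4a4 on chr1, 72 bases apart, and Col4a5 with Col4a6 on chrX, 1309 bases apart.

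Col4a1 and Col4a2, which build the common form of type IV collagen, were at a like level per kb, 2.69 and 2.58 CPM per kb in 82Q_M120A, 2.63 and 2.65 in 82Q, and 2.75 and 2.89 in WT. Col4a1 had 18.3, 19.5, 21.1, 21.3 and 20.3 CPM in 82Q_M120A, 20.1, 20.7, 17.1, 19.6 and 20.5 in 82Q, and 20.7, 20.4, 22.6, 19.6 and 19.2 in WT. Col4a2 had 15.2, 16.8, 17.5, 18.1 and 17.6 CPM in 82Q_M120A, 20.1, 18.9, 15.4, 16.8 and 16.6 in 82Q, and 17.9, 19.8, 19.9, 18.1 and 19.8 in WT. All groups overlapped, and the log2 fold change of Col4a2 in 82Q_M120A against WT was -0.16 ± 0.07 (edgeR adjusted p = 0.0649). It was called when WT-1 was left out (-0.19, edgeR adjusted p = 0.0489). In the libraries with much choroid plexus RNA it was -0.34, with 82Q_M120A-1 alone in its group. In those with little it was -0.05, with WT-4 alone in its group. Col4a5 and Col4a6 were less alike, at 1.70 and 0.39 CPM per kb in 82Q_M120A, 1.85 and 0.43 in 82Q, and 1.81 and 0.45 in WT. In CPM, Col4a5 was at 10.1 to 13.3 in 82Q_M120A, 10.96 to 14.6 in 82Q and 11.3 to 13.1 in WT, and Col4a6 at 2.63 to 3.51, 2.88 to 4.36 and 3.05 to 3.96. The 12 endothelial markers summed to 384 to 454 CPM in 82Q_M120A, 395 to 430 in 82Q and 382 to 417 in WT, with 2 called higher and 1 lower in 82Q_M120A against WT, 1 and 1 in 82Q against WT, and 3 and 1 in 82Q_M120A against 82Q. The 10 mural cell markers summed to 205 to 222, 189 to 209 and 160.1 to 204 CPM, with 4 called higher in 82Q_M120A against WT, 2 in 82Q against WT and 1 in 82Q_M120A against 82Q, and 0 lower in each.

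Col4a3 and Col4a4, chains of the basement membrane of kidney glomerulus and inner ear, split the libraries in another way. Col4a3 had 2.996, 0.871, 1.08, 0.896 and 0.833 CPM in 82Q_M120A, 1.23, 2.67, 1.17, 1.05 and 2.35 in 82Q, and 2.23, 2.40, 2.65, 0.836 and 2.14 in WT. The high libraries of each group were those with much choroid plexus RNA, which ranged from 2.14 to 2.996 CPM against 0.833 to 1.23 CPM in the other 8. Col4a4 showed the same split, with 1.91 to 3.25 against 0.588 to 1.02 CPM. Col8a1 and Col8a2, the chains of the hexagonal network of collagen VIII, split further, with 6.10 to 11.7 against 0.951 to 2.07 CPM for Col8a1 and 9.90 to 15.3 against 2.01 to 3.52 CPM for Col8a2. Col9a3 was the fifth such gene, at 51.1 to 59.7 against 34.2 to 42.3 CPM. Of the 44 collagens these 5 were higher in every 1 of the 7 libraries than in any of the 8, beside 1.22% of all tested genes. The sets of 7 and 8 libraries were drawn from the data, so no test is given.

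**Figure D5:**
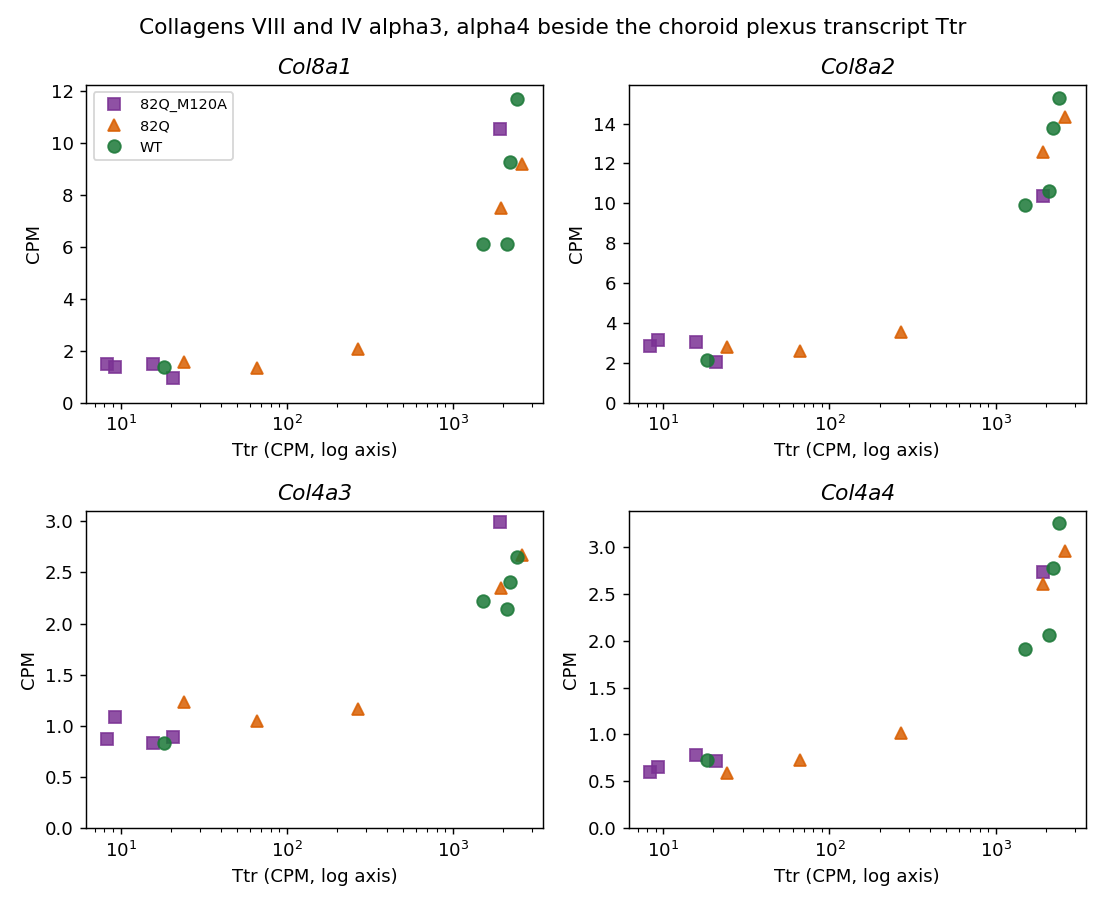
CPM of Col8a1, Col8a2, Col4a3 and Col4a4 (vertical axes) against CPM of Ttr (log axis) in the 15 libraries, by group. The 7 libraries with Ttr at 1510 CPM or more hold the 7 highest values of each gene, whichever group they belong to.

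Compared by group, none of these 5 was called. The log2 fold change in 82Q_M120A against WT was -1.11 ± 0.82 for Col8a1 (edgeR adjusted p = 0.320), -1.26 ± 0.67 for Col8a2 (edgeR adjusted p = 0.166), -0.60 ± 0.42 for Col4a3 (edgeR adjusted p = 0.289) and -0.95 ± 0.58 for Col4a4 (edgeR adjusted p = 0.222). Without 82Q_M120A-1, the 1 library of its group with much choroid plexus RNA, all 5 were called lower, with Col8a1 at -2.38 (edgeR adjusted p = 0.0252), Col8a2 at -1.90 (edgeR adjusted p = 0.0451), Col4a3 at -1.15 (edgeR adjusted p = 0.0163), Col4a4 at -1.64 (edgeR adjusted p = 0.0286) and Col9a3 at -0.41 (edgeR adjusted p = 0.0408). Col14a1 joined them at -0.75 (edgeR adjusted p = 0.0430), and the collagens called in that contrast numbered 19. The share of all tested genes called in that fit is not given, so the 19 are not read as a trait of collagens. The 4 libraries then left in 82Q_M120A all held little choroid plexus RNA, and 4 of the 5 WT libraries held much. Col9a3 was also called without WT-4 (-0.41, edgeR adjusted p = 0.0359), and in 82Q against WT with the choroid plexus score as a covariate (-0.18, edgeR adjusted p = 0.0297). With that covariate, 82Q_M120A against WT was 0.23 for Col8a1 (edgeR adjusted p = 0.394) and 0.13 for Col8a2 (edgeR adjusted p = 0.648). It was 0.20 for Col4a3 (edgeR adjusted p = 0.312) and 0.16 for Col4a4 (edgeR adjusted p = 0.423). Col9a3 was at -0.03 (edgeR adjusted p = 0.770) and Col14a1 at -0.07 (edgeR adjusted p = 0.804). None of these genes was called in that fit and contrast. Of the 12 choroid plexus markers, 1, Calml4, was called lower in 82Q_M120A against WT; in each of the other comparisons 0 were called by edgeR, DESeq2 or limma-voom, and 0 had an unadjusted p under 0.05.

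The remaining 4 network-forming, anchoring and unplaced collagens were called nowhere, and with Col8a1 and Col8a2 the class of 6 had no call by edgeR, DESeq2 or limma-voom. At an unadjusted p under 0.05 edgeR gave 1, Col10a1 in 82Q_M120A against WT, and 0 in each of the other 2 comparisons. Col7a1, the anchoring fibril collagen of skin, was at 13.9 to 20.5 CPM in 82Q_M120A, 14.8 to 17.8 in 82Q and 16.7 to 17.9 in WT, and without 82Q_M120A-4 it was lower in 82Q_M120A than in WT (-0.24, edgeR adjusted p = 0.00296) and than in 82Q (-0.17, edgeR adjusted p = 0.0457). Among libraries with much choroid plexus RNA, Col7a1 was at -0.27 in 82Q_M120A against WT, beside -0.13 with all libraries. The first value rests on 82Q_M120A-1 alone in its group. Col10a1, of growth plate cartilage, was at 0.163 to 0.386, 0.211 to 0.306 and 0.124 to 0.250 CPM in the same order, and higher in 82Q_M120A than in WT without 82Q_M120A-2 (0.71, edgeR adjusted p = 0.0215). Col26a1 was at 0.912 to 1.503, 1.04 to 1.43 and 0.767 to 1.48 CPM, and Col28a1, found in peripheral nerve, at 0.331 to 0.541, 0.250 to 0.588 and 0.265 to 0.470 CPM.

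Genes that make and process collagens were described from lists chosen with earlier results of these data known. Of all tested genes, 36.4% were called in 82Q_M120A against WT, 18.7% in 82Q against WT and 18.9% in 82Q_M120A against 82Q. These shares stand beside the counts of every list below. Of 19 genes of synthesis and secretion, 5 were called higher and 5 lower in 82Q_M120A against WT, 1 higher and 2 lower in 82Q against WT, and 3 higher and 5 lower in 82Q_M120A against 82Q. The median log2 fold changes of the list were 0.03, 0.03 and -0.03. P4ha2, a subunit of the enzyme that hydroxylates prolines of the helix, was at 6.25 ± 0.53 CPM in 82Q_M120A, 7.79 ± 0.62 in 82Q and 9.97 ± 0.61 in WT (SD, n = 5 each) and fell in all 3 comparisons, by -0.67 (edgeR adjusted p = 7.88e-07), -0.36 (edgeR adjusted p = 0.00141) and -0.32 (edgeR adjusted p = 0.00414). Sec23a, a coat protein of the vesicles that carry procollagen out of the endoplasmic reticulum, was at 83.7 ± 1.77 CPM in 82Q_M120A, 104 ± 3.84 in 82Q and 104 ± 1.43 in WT and fell in 82Q_M120A against WT (-0.32, edgeR adjusted p = 7.18e-08). P3h1, a prolyl 3-hydroxylase, also fell there (-0.23, edgeR adjusted p = 0.000227), and Plod2, a lysyl hydroxylase that sets the kind of cross-link, rose (0.31, edgeR adjusted p = 0.000917). In 82Q_M120A against 82Q, P3h1 fell (-0.12, edgeR adjusted p = 0.0428) and Plod2 rose (0.34, edgeR adjusted p = 0.00104). Neither was called in 82Q against WT.

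Of 18 genes of maturation and cross-linking, 2 were higher and 4 lower in 82Q_M120A against WT, 1 higher and 1 lower in 82Q against WT, and 0 higher and 1 lower in 82Q_M120A against 82Q. Adamts3, a protease that removes the N-propeptide of procollagen, was at 24.4 ± 2.22 CPM in 82Q_M120A, 24.7 ± 1.56 in 82Q and 34.2 ± 1.17 in WT (SD, n = 5 each), falls of -0.49 (edgeR adjusted p = 2.95e-06) and -0.47 (edgeR adjusted p = 8.62e-06) against WT. Bmp1, which removes the C-propeptide, rose in both (0.24, edgeR adjusted p = 0.00193, and 0.28, edgeR adjusted p = 0.00083). Lox, the lysyl oxidase that starts cross-linking, was at 1.65 ± 0.33 CPM in 82Q_M120A, 2.59 ± 0.47 in 82Q and 2.60 ± 0.42 in WT, lower in 82Q_M120A than in WT (-0.65, edgeR adjusted p = 0.00272) and in 82Q (-0.64, edgeR adjusted p = 0.00608). The proteoglycan Bgn rose in 82Q_M120A against WT (0.41, edgeR adjusted p = 0.0109).

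Of 8 tested collagen receptors, 2 were higher and 1 lower in 82Q_M120A against WT, 1 higher and 0 lower in 82Q against WT, and 1 higher and 1 lower in 82Q_M120A against 82Q. Adgrg1, the adhesion receptor GPR56 that binds collagen III in developing mouse brain, was at 61.0 ± 7.01 CPM in 82Q_M120A, 54.0 ± 4.51 in 82Q and 39.2 ± 1.41 in WT (SD, n = 5 each), rises of 0.64 (edgeR adjusted p = 2.73e-06) and 0.46 (edgeR adjusted p = 0.000168). Ddr1, a receptor tyrosine kinase for collagen, rose in 82Q_M120A against WT (0.21, edgeR adjusted p = 0.00318), and the integrin chain gene Itga2 fell there (-0.79, edgeR adjusted p = 0.0402). Adgrg1 and Ddr1 are also expressed in oligodendrocytes and their precursors, and of 10 oligodendrocyte lineage markers 8 rose in 82Q_M120A against WT and 7 in 82Q against WT, and 3 in 82Q_M120A against 82Q, with sums of 6833 to 7453 CPM in 82Q_M120A, 6081 to 7365 in 82Q and 4951 to 5981 in WT. Their part in the receptor values was not tested.

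Of 11 matrix metalloproteinases and inhibitors, 2 were higher and 4 lower in 82Q_M120A against WT, 4 higher and 1 lower in 82Q against WT, and 1 higher and 1 lower in 82Q_M120A against 82Q. Mmp24, a membrane-bound protease of neurons, was at 346 ± 26.4 CPM in 82Q_M120A, 313 ± 12.9 in 82Q and 266 ± 8.67 in WT (SD, n = 5 each) and rose in all 3 comparisons, by 0.38 (edgeR adjusted p = 5.73e-06), 0.23 (edgeR adjusted p = 0.00156) and 0.14 (edgeR adjusted p = 0.0404). Mmp15 fell in 82Q_M120A against WT (-0.49, edgeR adjusted p = 0.000178) and against 82Q (-0.36, edgeR adjusted p = 0.00507). The inhibitor Timp4 fell in 82Q_M120A (-0.12, edgeR adjusted p = 0.0495) and 82Q (-0.18, edgeR adjusted p = 0.00889) against WT, and Timp1 rose in 82Q against WT (0.65, edgeR adjusted p = 0.0183).

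Of the 12 partners of type IV collagen in basement membranes, 1 was higher and 2 were lower in 82Q_M120A against WT, 0 were called by edgeR, DESeq2 or limma-voom in 82Q against WT (1, Lamc1, at an unadjusted p under 0.05), and 0 were higher and 1 lower in 82Q_M120A against 82Q. Lamb1, a laminin beta chain, was at 46.8 ± 8.47 CPM in 82Q_M120A, 70.5 ± 7.74 in 82Q and 82.0 ± 8.05 in WT (SD, n = 5 each) and fell in 82Q_M120A against WT (-0.81, edgeR adjusted p = 6.27e-05) and against 82Q (-0.59, edgeR adjusted p = 0.00214). Lama5 fell (-0.42, edgeR adjusted p = 0.00688) and Lamc1 rose (0.15, edgeR adjusted p = 0.0218) in 82Q_M120A against WT.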

How the data were processed

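RNA-seq of mouse cerebellum gave 15 libraries, 5 per group. The authors deposited a table of raw counts per gene. Per the submitters' processing notes, CASAVA 1.8, HISAT2 2.0.1, Subread featureCounts, R 3.3.3 and DESeq2 1.14.1 were used with the mm10 build; neither the strand setting nor the annotation is stated there. Columns name the group alone, so libraries are numbered by column. In a chi-square test of counts, all 30 within-group pairs exceeded sampling noise (statistic over degrees of freedom 6.84 at the least and 69.0 at the most), so none was counted as a duplicate.

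The counts were filtered with filterByExpr, scaled by TMM and fitted with edgeR 4.0.16 (robust quasi-likelihood, R 4.3.3, 12 residual degrees of freedom), tested on simulated data. limma 3.58.1 and DESeq2 1.42.0 served as alternatives. The standard error is the size of the log2 fold change over the root of F. Exon lengths and coordinates came from GENCODE on mm10, matched by symbol. All collagens are named. Values by library are given for called members averaging 1 CPM or more, and for the 2 most abundant of each of the 4 classes; those of Col6a4 and Col4a3 were added after their values were seen. Lists give up to 4 called genes with the smallest adjusted p. The members and lists were chosen with earlier results of these data known. The sets of libraries by choroid plexus RNA and the score covariates were chosen after seeing the data.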

Additional observations from a re-analysis of the deposited data

Results flagged for a closer look

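Among the 63 groups of 5 libraries checked, those of 21 collagens, 2 held a library far from the other 4; by chance about 1 in 20 groups would. Col20a1 stood at 10.0357 CPM in WT-4, with the other WT libraries at 8.65 to 8.97 CPM, a gap of 0.772 of the group's range. Col13a1 stood at 2.24547 CPM in 82Q-2, with the other 82Q libraries at 1.51 to 1.69 CPM, a gap of 0.754 of the range.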

How the results depend on the processing

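The number of collagens called in 82Q_M120A against WT was 14, and 9 in the libraries with little choroid plexus RNA. In 82Q against WT it was 9, then 5 at an adjusted p under 0.01 and 3 in the libraries with little choroid plexus RNA. In 82Q_M120A against 82Q it was 10, and 5 in those libraries, which leave 4 libraries of 82Q_M120A, 3 of 82Q and 1 of WT; the lone WT library is assumed to vary like the others. Leaving out 1 library gave 11 to 19, 7 to 9 and 9 to 12 calls. These counts are given without the share of all tested genes called in the same fits. Their shifts are therefore not read as a trait of collagens. Single genes were followed for 21 collagens, the called ones and the 2 most abundant of each of the 4 classes. None of these changed direction while called. Over them, leaving out 1 library kept the side of the threshold in 580 cases, ended a call in 41 and made one in 9. The other alternatives did so in 688, 54 and 8. The rest of the collagens are not in these numbers. Scaling by library size alone moved the median of all genes by 0.049 in 82Q_M120A against WT and made the share of higher calls 68.8% (51.1% with TMM), and 73.0% (46.2%) in 82Q against WT, while collagens called were 8 higher and 7 lower, and 4 and 4. No paired analysis was possible because the columns carry no replicate numbers.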

Other observations

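Genes with a collagen-like stretch that are not collagens were listed after the collagen values had been seen; of 18, 15 were tested. In 82Q_M120A against WT 2 were called higher and 2 lower, in 82Q against WT 2 and 2, and in 82Q_M120A against 82Q 1 and 2. Colec10, a secreted collectin, had 492 counts in 82Q_M120A, 638 in 82Q and 2 in WT over 5 libraries each, ratios to WT of 189 (95% exact interval for counting error alone, 52.2 to 1569) and 264 (72.7 to 2183). Cthrc1, a secreted protein with a short collagen stretch, fell in 82Q_M120A (-0.67, edgeR adjusted p = 7.55e-07) and 82Q (-0.59, edgeR adjusted p = 5.98e-06) against WT, as did Eda, a transmembrane ligand of ectodermal development (-0.71, edgeR adjusted p = 5.08e-05, and -0.57, edgeR adjusted p = 0.000923).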
